A study of Mus musculus with 12 samples.

Results

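Ribosomal-like and abundant noncoding RNAs were followed in mouse brain through 6 genes: the ribosomal-like RNAs Yam1 and AY036118, and the long noncoding RNAs Malat1, Neat1, Miat and Snhg11. The 6 genes were taken from the deposited table by gene name, from a list chosen with earlier results of these data known. All 6 were found among its 43346 genes. All 6 were also among the 22553 genes with enough counts to be tested.

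Each of the 12 libraries came from a brain cross-section that held both hippocampus and cortex, and was made with a kit (TruSeq RNA v2) that selects polyadenylated RNA and does not mark strand. The study concerned CP2, a partial inhibitor of mitochondrial complex I. The young group (4 libraries, numbered 1, 3, 4 and 5) came from untreated C57BL/6 mice aged 3 months. The old group (4 libraries, 7 to 10) came from mice aged 23 months with the strain label C57BL/6;SJL-Tg, which drank water with 0.1% PEG as vehicle from 9 months of age. The CP2-treated old group (4 libraries, 11, 12, 13 and 15) had the same age, strain label and vehicle, with CP2 at 25 mg/kg per day from 9 months of age. All 12 samples are labelled wild type and NTG (non-transgenic), whereas the series' design text speaks of treated APP/PS1 mice. Age, strain label and vehicle change together between the young and old groups and cannot be told apart in that comparison. The labels name no batch. They do not say whether libraries of a group come from different mice, so the p-values below measure only the spread between these libraries, which may be technical. Old against young and CP2-treated against old share the old group, and CP2-treated against young shares a group with each of them, so the 3 comparisons are not independent.

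Ribosomal RNA is made without a poly(A) tail and is by far the most abundant RNA of a cell, so libraries made by poly(A) selection hold only what remains of it. Malat1 sits in nuclear speckles, the nuclear stores of splicing factors, and Neat1 is the scaffold of paraspeckles, nuclear bodies that hold RNA-binding proteins and edited RNA. Miat, also called Gomafu, is a nuclear RNA of neurons that binds splicing factors, and Snhg11 is a host gene of small nucleolar RNAs (snoRNAs), which guide the modification of ribosomal RNA.

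Libraries held between 70548781 and 99449665 counts assigned to genes, which is 79.9% to 85.4% of the library size implied by the deposited RPKM values (reads scaled by gene length and by library size). A share is given below as the percent of these assigned counts. CPM is the count scaled to a common library size, after adjustment between libraries by trimmed mean of M-values (TMM). The samples also differ in tissue makeup: of 12 listed markers of midbrain and hindbrain 11 rose in old against young, and 7 of 9 tested striatal markers fell. Over all tested genes, edgeR called 6.7% in old against young, 0.0443% in CP2-treated against old and 7.57% in CP2-treated against young. Among markers of choroid plexus and ependyma, the summed level ran from 2034 to 3260 CPM in young, from 282.3 to 1816 in old and from 247 to 1456 in CP2-treated libraries. Of 11 astrocyte markers 5 rose in old against young by edgeR, and 6 were lower at an unadjusted p under 0.05 in CP2-treated against old, where edgeR and limma voom called none and DESeq2 called 4. All 6 red blood cell markers rose in CP2-treated against young, and 2, Hba-a1 and Hba-a2, rose against old by edgeR, where limma voom called 3 and DESeq2 4. The CP2-treated libraries summed to between 228.1 and 443.6 CPM over these markers, above every old library (81.66 to 148.2 CPM) and every young library (59.23 to 90.95 CPM). What these differences contribute to the levels of the 6 RNAs was not tested. In whole tissue, fewer cells of a type and less RNA per cell cannot be told apart.

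The 6 RNAs together took 4.965% ± 0.901 (SD, n = 4) of the counts in young, 5.948% ± 1.264 (n = 4) in old and 3.966% ± 0.556 (n = 4) in CP2-treated libraries. Old library 8 held the most, at 7.771%, and CP2-treated library 15 the least, at 3.303%. All 4 CP2-treated libraries, at 3.303% to 4.52%, lay below all 4 old libraries, at 4.988% to 7.771%, and the young libraries, at 3.961% to 5.82%, overlapped both. Yam1 and AY036118 share most of their reads (below). With AY036118 left out, the sum was 3.228% ± 0.58 in young, 3.839% ± 0.793 in old and 2.584% ± 0.34 in CP2-treated libraries (SD, n = 4 each). The 4 long noncoding RNAs alone took 0.316% ± 0.074, 0.2984% ± 0.0371 and 0.2451% ± 0.0285 in the same order.

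The levels span several orders of magnitude. By counts, Yam1 ranked first and AY036118 came next in every one of the 12 libraries. Malat1 ranked between 9 and 40, Snhg11 between 87 and 245, Miat between 376 and 983, and Neat1 between 1054 and 2882.5. On the per-length RPKM scale the mean over 12 libraries was 13160 for Yam1, 10990 for AY036118, 222 for Malat1, 59.55 for Snhg11, 21.95 for Miat and 4.47 for Neat1. On this scale the ranges of Yam1 (8661 to 20850) and AY036118 (7198 to 17390) overlap. The other neighbours in the order do not overlap over the 12 libraries: Malat1 ran from 155.6 to 343.9, Snhg11 from 46.79 to 74, Miat from 17.63 to 29.39 and Neat1 from 3.18 to 6.79. Counting error is small beside the spread between libraries. The Wilson 95% interval of a share was at most 0.159% of the share to either side for Yam1 and at most 2.31% for Neat1, and these intervals cover counting error only.

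**Figure D1:**
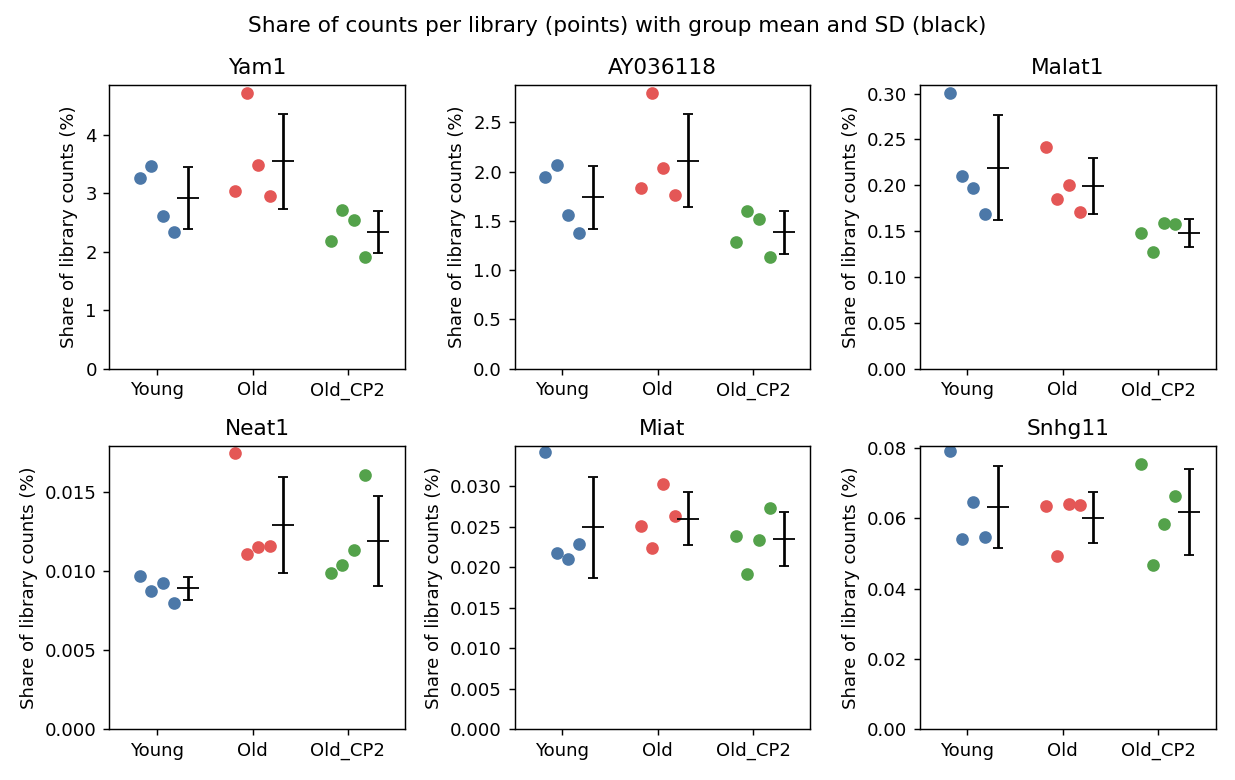
Share of the counts assigned to genes (percent, y axis) for each of the 6 RNAs in each library (points, by group on the x axis), with the group mean and SD in black, n = 4 per group. Yam1, AY036118 and Malat1 are lower in all 4 CP2-treated libraries than in all 4 old libraries, and Neat1 is higher in all 4 old libraries than in all 4 young ones.

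Yam1 lies at chr17:39846958-39848788 (mm10, the GRCm38 build) and has 1831 bases in 1 exon. Its deposited identifier, ENSMUSG00000098178, carries the name Gm42418 in the GENCODE vM21 annotation, which lists it as a long intergenic noncoding RNA on the plus strand. The first 1244 bases of this transcript are, without a mismatch, the reverse complement of an annotated ribosomal RNA on the minus strand, CT010467.1. These are strands of the annotation, and which strand carries the ribosomal RNA was not examined here. AY036118, deposited as ENSMUSG00000045999, covers chr17:39847526-39848829. Of its 1304 bases, 1263 lie inside Yam1 and 41 outside. GENCODE vM21 holds a gene of the same name under another identifier at chr17:39847113-39848035 on the minus strand, and the deposited coordinates are used here. The stretch where the deposited AY036118 begins inside Yam1 is shown from both annotated strands, because a kit that does not mark strand cannot assign a read to either. Both are written 5′ to 3′ for chr17:39847466-39847585 from the GENCODE vM21 transcripts of GRCm38, Yam1 on the plus and CT010467.1 on the minus strand, and capitals mark the bases inside the deposited AY036118.
Yam1: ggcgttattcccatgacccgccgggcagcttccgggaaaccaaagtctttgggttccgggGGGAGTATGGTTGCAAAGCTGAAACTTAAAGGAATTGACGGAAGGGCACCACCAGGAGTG
CT010467.1: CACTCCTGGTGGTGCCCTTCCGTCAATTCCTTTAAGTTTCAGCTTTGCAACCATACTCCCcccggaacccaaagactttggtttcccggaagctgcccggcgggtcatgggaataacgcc

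**Figure D2:**
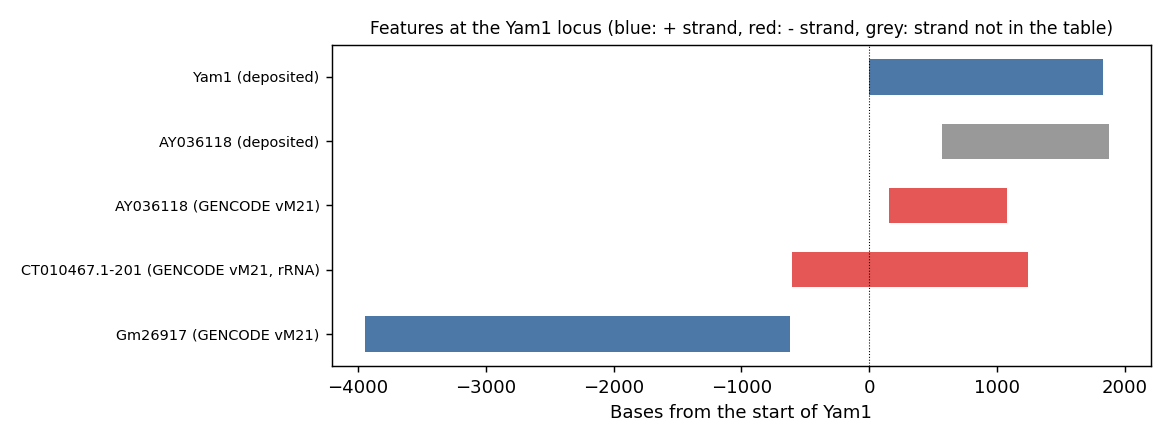
Features at the Yam1 locus drawn to scale, with the distance in bases from the start of Yam1 on the x axis and 1 bar per feature (blue plus strand, red minus strand, grey where the deposited table gives no strand). The deposited AY036118 lies inside Yam1 except for 41 bases, and Gm26917 ends 617 bases before Yam1 starts. The ribosomal RNA covers the first 1244 bases of Yam1 and is annotated on the other strand.

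Yam1 took 3.26%, 3.46%, 2.61% and 2.33% of the counts in young libraries 1, 3, 4 and 5. Its share was 3.03%, 4.71%, 3.47% and 2.95% in old libraries 7 to 10, and 2.19%, 2.72%, 2.55% and 1.91% in CP2-treated libraries 11, 12, 13 and 15. Every CP2-treated library is below every old library, while the young libraries overlap both groups. The fitted log2 fold change in CPM of CP2-treated against old was -0.62 ± 0.19 (SE, 95% interval -1.03 to -0.22). It did not pass edgeR's quasi-likelihood test with Benjamini-Hochberg adjustment over all tested genes (adjusted p = 0.486). Old against young gave 0.29 ± 0.19 (interval -0.11 to 0.69, adjusted p = 0.412) and CP2-treated against young -0.34 ± 0.19 (interval -0.74 to 0.06, adjusted p = 0.304). Without old library 8, the highest of the 12, old against young was 0.109 for Yam1 and 0.108 for AY036118.

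AY036118 took 1.94%, 2.07%, 1.56% and 1.38% in the young libraries, 1.84%, 2.80%, 2.04% and 1.77% in the old, and 1.28%, 1.60%, 1.52% and 1.13% in the CP2-treated libraries, in the same order. These values follow Yam1 library by library. The count of AY036118 divided by that of Yam1 stayed between 0.586 and 0.606 in all 12 libraries, although the RNAs' own shares varied 2.48-fold and 2.47-fold. Since only 41 bases of AY036118 lie outside Yam1, these are mostly the same reads, and the pair is one measurement rather than 2. CP2-treated against old gave a log2 fold change of -0.64 ± 0.18 (interval -1.03 to -0.24, adjusted p = 0.453 in the same edgeR test), and neither of the other comparisons passed (adjusted p of 0.408 and 0.273).

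The genes most like the ribosomal-like pair were sought among 16695 tested genes with a mean of at least 1 CPM, by Pearson's r of log2 CPM over the 12 libraries. These values describe likeness over libraries that share group differences and carry no test. Besides AY036118 (r = 0.999), the genes most like Yam1 were Lars2 (r = 0.929) and Gm24270 (r = 0.889). Lars2 encodes the mitochondrial leucyl-tRNA synthetase, and was also placed on the list of ribosomal-like and structural genes used below. Counts per gene do not show which part of Lars2 was read, so they may not stand for the synthetase mRNA. The Lars2 level was 6159, 5083, 4848 and 4031 CPM in the young, 4818, 7570, 6954 and 4842 in the old, and 3816, 4264, 4634 and 3409 in the CP2-treated libraries. As for Yam1, all CP2-treated libraries are below all old ones, and the difference of -0.58 ± 0.17 in log2 CPM did not pass the test (edgeR, adjusted p = 0.444). Gm24270, annotated as a miRNA gene on chromosome 9, has the same 57 bases as Gm23935 on chromosome 16. Reads that lie wholly inside these bases cannot be told apart, yet the counts of the 2 genes differ. Gm24270 stood at 48.57 ± 12.5 CPM (SD, n = 4) in old and 31.1 ± 2.62 in CP2-treated libraries. How reads were divided between them was not tested. Gm23935 also stands among the 8 genes most like Yam1 (r = 0.866), at 1371 ± 372 CPM (SD, n = 4) in old and 899 ± 99.7 in CP2-treated libraries. For AY036118 the genes after Yam1 were Lars2 (r = 0.925) and Gm26803 (r = 0.886), the latter at only 1.52 ± 0.34 CPM in old and 0.932 ± 0.055 in CP2-treated libraries.

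**Figure D3:**
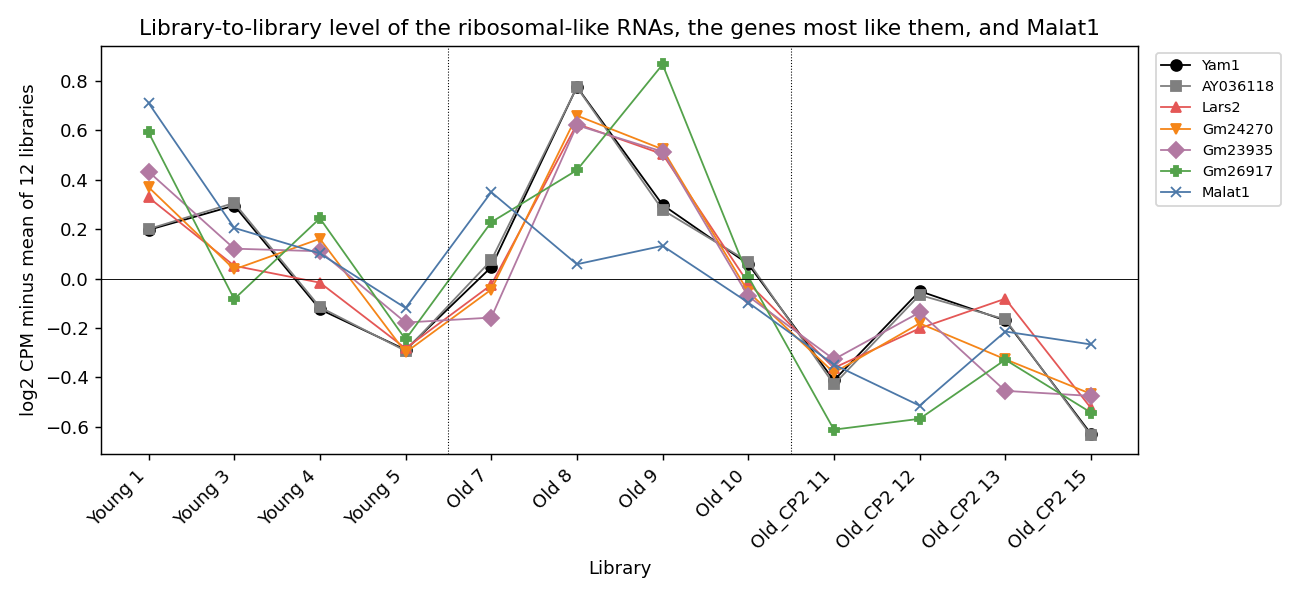
Log2 CPM of each gene minus its own mean over the 12 libraries (y axis) in each library (x axis; dotted lines separate the young, old and CP2-treated groups). Yam1 and AY036118 lie on each other, Lars2, Gm24270 and Gm23935 share their high value in old library 8, Gm26917 peaks in old library 9, and Malat1 is highest in young library 1.

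Within 100 kb of Yam1, 2 other tested features lie upstream on chromosome 17. Gm26917, at chr17:39843013-39846341, stood at 142.3, 89.12, 111.8 and 79.58 CPM in the young, 110.6, 128, 172.2 and 94.92 in the old, and 61.77, 63.68, 75.17 and 64.8 in the CP2-treated libraries. All CP2-treated libraries are below all others. Against young it fell by 0.67 ± 0.19 in log2 CPM (edgeR, adjusted p = 0.0449), and against old the difference of -0.93 ± 0.19 did not pass (adjusted p = 0.151). RP23-81C12.2, whose interval lies inside that of Gm26917, gave -0.69 ± 0.18 against young (adjusted p = 0.0372) and -0.90 ± 0.18 against old (adjusted p = 0.171). These intervals overlap, so the features can share reads.

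Other structural RNAs were read from a list of 18 ribosomal-like and structural genes, which includes the protein-coding Lars2. Of the list 10 were in the table and 6, none of them a member, were tested: Gm26917, Lars2, Gm15564, Rmrp, Rn7sk and Rpph1. In CP2-treated against old none passed the edgeR test at an adjusted p under 0.05, and all 6, Lars2 included, were lower at an unadjusted p under 0.05, with a median log2 fold change of -0.91 beside 0.0017 over all tested genes. Over all genes, 6.31% reached an unadjusted p under 0.05 in that comparison in either direction. DESeq2, another count model that called 108 genes in that comparison where edgeR called 10, called 3 of the 6 lower (Gm26917, Rmrp and Rpph1), and limma voom called none. Rmrp, the RNA of the RNase MRP complex that cuts ribosomal RNA precursors, was at 4.315 ± 1.69 CPM in old and 1.78 ± 0.674 in CP2-treated libraries (SD, n = 4 each). Rpph1, the RNA of RNase P, which trims tRNA precursors and cuts Malat1, was at 0.718 ± 0.273 in old and 0.211 ± 0.0985 in CP2-treated libraries. Against young, 2 of the 6 fell in CP2-treated libraries, Rpph1 by 1.67 ± 0.39 in log2 CPM (edgeR, adjusted p = 0.0213) and Gm26917, where edgeR called 7.57% of all genes. The Rpph1 call rests on few reads, at a mean of 0.672 CPM in young and 0.211 CPM in CP2-treated libraries. In that comparison limma voom called Rpph1 but not Gm26917, and DESeq2 called 3, Rpph1, Gm26917 and Gm15564. In old against young none of the 6 passed, and 1 had an unadjusted p under 0.05 (Rmrp, 0.69 ± 0.28, adjusted p = 0.172).

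Of 22 protein-coding genes for RNA polymerase I, its factors and the nucleolus, where ribosomal RNA is made, none passed in CP2-treated against old by edgeR, limma voom or DESeq2 (1 had an unadjusted p under 0.05 in edgeR), and their median log2 fold change was 0.001. Bop1, a ribosome assembly factor, was the 1 that fell in each of the other comparisons, from 47.66 ± 1.78 CPM in young to 41.74 ± 2.63 in old (adjusted p = 0.0444) and 40.4 ± 1.29 in CP2-treated libraries (SD, n = 4 each, edgeR, adjusted p = 0.016). The summed level of the 22 stayed between 957 and 1019 CPM in all libraries.

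Malat1 lies at chr19:5795690-5802672 and Neat1 at chr19:5824708-5845478, both on the minus strand and both annotated as long intergenic noncoding RNAs with a transcript of 1 exon (6983 and 20771 bases). Both RNAs are known to lack an ordinary poly(A) tail at the 3′ end of the long form. There, U-rich tracts and an A-rich tract fold into a triple helix that shields the end from decay. The stretches that hold these tracts are shown because this 3′ end is the sequence feature that Malat1 and Neat1 have in common. Both are 160 bases, 5′ to 3′ on the minus strand, from the GENCODE vM21 transcripts of GRCm38, at chr19:5795982-5796141 for Malat1 and chr19:5824708-5824867 for Neat1. Capitals mark TTTTGCTTTT and AAAAGCAAAA, and any other U-rich tract is left in lower case.
Malat1: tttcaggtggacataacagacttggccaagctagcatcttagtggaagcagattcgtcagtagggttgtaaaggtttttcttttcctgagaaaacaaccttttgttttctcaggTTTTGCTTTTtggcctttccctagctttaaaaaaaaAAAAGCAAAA
Neat1: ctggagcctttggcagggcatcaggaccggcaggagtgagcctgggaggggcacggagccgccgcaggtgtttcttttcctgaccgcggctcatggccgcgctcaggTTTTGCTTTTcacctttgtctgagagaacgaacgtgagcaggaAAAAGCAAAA

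The tracts marked in capitals were searched as the last 10 bases of Neat1 and their reverse complement, so that a search of either strand finds the same pair. Of the longest transcripts of 55450 annotated genes, 3 hold both within 160 bases, those of Malat1, Neat1 and Pbdc1. In fixed windows of 160 bases along the same transcripts, 1 of 637267 (0.000157%) held the pair. These windows include those of Malat1 and leave out an incomplete window at a transcript's end. The letters were taken from Neat1, so its own match was given in advance. The share of windows is therefore no independent background rate. In Neat1 the A-rich tract is the end of the annotated transcript, and in Malat1 another 292 bases follow it. A match of letters is a description of these stretches and was not measured as a structure.

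Malat1 took 0.301%, 0.21%, 0.197% and 0.169% of the counts in young libraries 1, 3, 4 and 5. Its share was 0.242%, 0.185%, 0.2% and 0.171% in old libraries 7 to 10, and 0.148%, 0.127%, 0.159% and 0.158% in CP2-treated libraries 11, 12, 13 and 15. All 4 CP2-treated libraries are below the other 8, and young library 1 is the highest of all. In CPM, Malat1 was at 2202 ± 570 in young, 2001 ± 262 in old and 1463 ± 130 in CP2-treated libraries (SD, n = 4 each). Against young it fell by 0.59 ± 0.15 in log2 CPM (interval -0.91 to -0.27, edgeR, adjusted p = 0.0318), a level 0.664 times that in young. This was the single call among the 6 RNAs in any comparison: 1 of 6 in CP2-treated against young, where 7.57% of all tested genes were called (2.94% lower), which is no statement about the 6 as a set. The call did not hold without young library 1 (adjusted p = 0.064) or 3 (0.0559), nor without CP2-treated library 11 (0.0824), 12 (0.0925) or 15 (0.0504). Against old the difference was -0.45 ± 0.15 (interval -0.78 to -0.13, adjusted p = 0.611), and old against young gave -0.14 ± 0.15 (interval -0.46 to 0.18, adjusted p = 0.665).

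**Figure D4:**
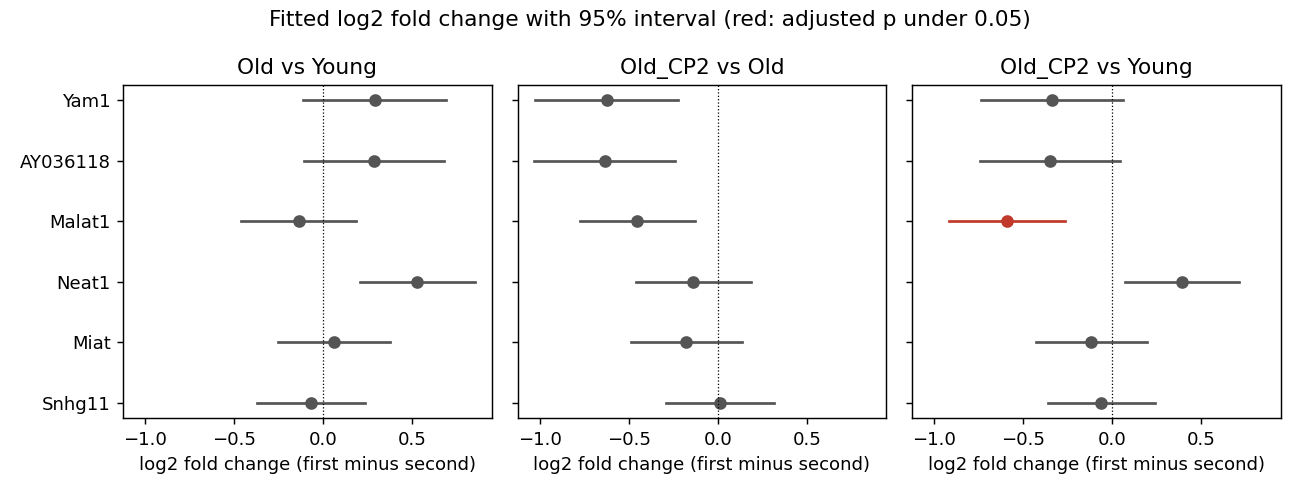
Fitted log2 fold change of CPM (x axis, first group minus second) with its 95% interval for the 6 RNAs (rows) in each of the 3 comparisons (panels), red where the adjusted p was under 0.05. Malat1 in CP2-treated against young is the single red point, and the intervals of Yam1, AY036118 and Malat1 in CP2-treated against old lie below 0 without an adjusted p under 0.05.

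Features annotated inside Malat1 moved with it, as they must where they share its reads. Gm20417, Gm27694 and RP24-458F14.4 lie within the Malat1 interval, the last annotated on the opposite strand, and reads of both strands cannot be told apart with this kit. All 3 fell in CP2-treated against young (log2 fold changes from -0.57 to -0.55), and their r with Malat1 was 0.994 to 0.996. Gm27694, of 86 bases, had a mean of 4315 counts although it lies wholly inside Malat1, so reads in an overlap were counted for the inner feature. Of 17 proteins of nuclear speckles and splicing, the bodies where Malat1 sits, none passed in any comparison by edgeR, limma voom or DESeq2, with at most 1 at an unadjusted p under 0.05 in each edgeR comparison.

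Neat1 took 0.00971%, 0.00876%, 0.00923% and 0.00798% of the counts in the young libraries. Its share was 0.0175%, 0.0111%, 0.0115% and 0.0116% in old libraries 7 to 10, and 0.00987%, 0.0104%, 0.0114% and 0.0161% in CP2-treated libraries 11, 12, 13 and 15. In share, all 8 libraries of mice aged 23 months are above all 4 of the young, and old library 7 and CP2-treated library 15 stand above the rest. In CPM, where CP2-treated library 11 (96.7) lay just below young library 1 (97.4), Neat1 was at 89.7 ± 7.35 in young, 129 ± 26.7 in old and 118 ± 26.1 in CP2-treated libraries (SD, n = 4 each). Old against young gave 0.53 ± 0.15 in log2 CPM (interval 0.21 to 0.85), which missed the threshold in the edgeR test (adjusted p = 0.0516). It passed without the filter on low counts (adjusted p = 0.0386), in a fit of the 8 libraries of both groups alone (0.0354) and by DESeq2 (0.00604). By limma voom it did not pass (adjusted p = 0.053), nor with any 1 library left out (edgeR, adjusted p from 0.0559 to 0.122). Without old library 7 the difference was 0.378. CP2-treated against young gave 0.39 ± 0.15 (interval 0.07 to 0.72, adjusted p = 0.134), or 0.236 without CP2-treated library 15, and CP2-treated against old -0.14 ± 0.15 (interval -0.46 to 0.18, adjusted p = 0.903).

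Neat1 has a short and a long form that start at the same place, and only the long form builds paraspeckles. A short annotated form spans chr19:5842307-5845476, at the 5′ end of the long one. The features Gm27505, Gm27533 and Gm28006 lie inside it and share its reads. Gm27505 rose in old against young by 0.61 in log2 CPM (edgeR, adjusted p = 0.032), and the other two gave 0.55 (adjusted p = 0.0567) and 0.56 (adjusted p = 0.056). The counts do not separate the forms, since reads of the 5′ end belong to both. Of 15 paraspeckle proteins none passed in old against young (2 had an unadjusted p under 0.05) or in CP2-treated against old (1 had), by edgeR, and limma voom and DESeq2 also called none there. Taf15, an RNA-binding protein of paraspeckles, and Dazap1, another, fell in CP2-treated against young, Taf15 from 39.9 ± 1.8 to 33.13 ± 1.85 CPM (SD, n = 4 each, edgeR, adjusted p = 0.00669) and Dazap1 from 38.37 ± 2.17 to 33.41 ± 1.98 (adjusted p = 0.0443). Sfpq and Nono, which bind Neat1 and are needed for paraspeckles, gave -0.01 and -0.005 in old against young. The median of the 15 was -0.04 in old against young, beside -0.0034 over all tested genes.

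The gene outside the locus most like Neat1 was Ntn1 (r = 0.968 over 12 libraries), which encodes netrin-1, a secreted guidance protein. Ntn1 stood at 30.57 CPM in old library 7 and 26.32 in CP2-treated library 15, and at 12.17 to 19.03 CPM in the other 10 libraries. The summed level of 12 oligodendrocyte markers was also highest in these libraries within their groups. It was 7996 CPM in old library 7 against 5625 to 6047 in the other old libraries, and 6964 in CP2-treated library 15 against 5035 to 5934 in the other CP2-treated ones. In the young libraries, where Neat1 was lowest, that sum ran from 6216 to 7532, within the range of the old libraries. Of these 12 markers 3 fell in old against young and 5 in CP2-treated against young. Microglial markers differed between these groups too: 4 of 12 rose in old against young, and their sum ran from 341.6 to 446.8 CPM in young and from 507.1 to 529.7 in old libraries. For 12 midbrain and hindbrain markers, old library 7 (137.1 CPM) and CP2-treated library 15 (229.6) again held the highest sum of their groups. Next came old library 8, at 102.9 CPM, and CP2-treated library 12, at 106.8. No young library exceeded 35.54 CPM. For 15 markers of glutamatergic neurons, old library 7 (7346 CPM) and CP2-treated library 15 (8428) held the lowest sum of their groups. The part of these cell types and brain regions in the level of Neat1 was not tested.

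**Figure D5:**
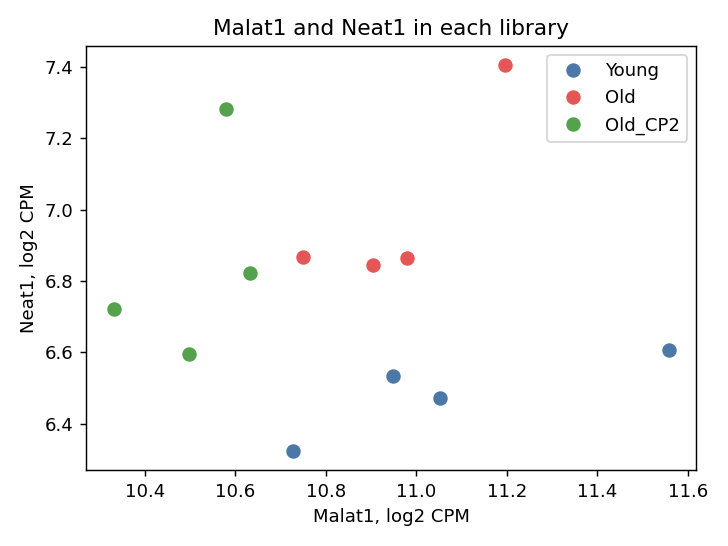
Neat1 (y axis) against Malat1 (x axis) in log2 CPM, 1 point per library, coloured by group. The young libraries lie low on the Neat1 axis, the CP2-treated libraries lie low on the Malat1 axis, and the ratio of counts of Malat1 to Neat1 is 21.2 to 31 in young libraries.

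Malat1 and Neat1 lie side by side on chromosome 19. Their r over the 12 libraries was 0.016 (Spearman's rho 0.042, permutation p of 0.96 and 0.904, adjusted p of 0.96 and 0.921 over 15 pairs). Without CP2-treated library 12 and young library 1, the farthest from the median of Malat1, r was 0.169. Once each group's mean was removed r was 0.549. Mean CPM was highest in young for Malat1 and lowest in young for Neat1. The count of Malat1 divided by that of Neat1 was 31, 23.9, 21.3 and 21.2 in the young, 13.8, 16.7, 17.3 and 14.8 in the old, and 15, 12.2, 14 and 9.84 in the CP2-treated libraries. The young libraries do not overlap the other 8, and the old and CP2-treated libraries overlap. This ratio was formed after the values were seen and carries no test.

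Miat lies at chr5:112213228-112229395 on the minus strand, and its longest annotated transcript has 7 exons and 9163 bases. Its last exon, of 7008 bases, carries repeats of ACTAAC, the letters through which Miat is known to bind splicing factors such as Qk and Celf proteins. The stretches richest in the repeat are shown, 5′ to 3′ on the minus strand from the GENCODE vM21 transcript of GRCm38, stretch 1 at chr5:112217301-112217460 and stretch 2 at chr5:112216751-112216876. Capitals mark ACTAAC.
Miat stretch 1: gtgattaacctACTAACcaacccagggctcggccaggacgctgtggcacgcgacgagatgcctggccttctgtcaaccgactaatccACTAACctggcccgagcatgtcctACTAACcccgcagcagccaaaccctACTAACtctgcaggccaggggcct
Miat stretch 2: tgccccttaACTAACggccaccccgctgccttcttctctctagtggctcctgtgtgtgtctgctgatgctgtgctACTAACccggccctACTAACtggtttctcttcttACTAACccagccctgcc

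This transcript holds ACTAAC 11 times, all in the last exon, and its reverse complement GTTAGT not at all. That is 1.2 per kb, and of 4190 genes whose longest transcript has at least 5000 bases, Miat and 1 other reach this density, beside a median of 0.106 per kb. Neat1 holds the letters 4 times on either strand, Snhg11 once, and Malat1 only on the other strand. In windows of 160 bases over all genes' longest transcripts, 1.82% held ACTAAC and 3.57% held it on either strand.

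Miat took 0.0342%, 0.0218%, 0.0209% and 0.0228% of the counts in young libraries 1, 3, 4 and 5. Its share was 0.0251%, 0.0223%, 0.0302% and 0.0263% in the old and 0.0239%, 0.0192%, 0.0234% and 0.0273% in the CP2-treated libraries. The 3 groups overlap, and young library 1 is the highest of the 12. No comparison passed: old against young gave 0.06 ± 0.14 in log2 CPM (interval -0.25 to 0.37), CP2-treated against old -0.18 ± 0.14 (interval -0.49 to 0.14) and CP2-treated against young -0.12 ± 0.14 (interval -0.43 to 0.20), with adjusted p of 0.866, 0.878 and 0.688 in the edgeR test. Differences inside these intervals were not detectable. Of the 5 tested features that overlap Miat, 0 passed in any comparison by edgeR. Of 4 tested splicing factors known to bind the repeat or related letters none passed by edgeR, limma voom or DESeq2, with 2 at an unadjusted p under 0.05 in old against young and none in the other comparisons (edgeR). Qk, the quaking RNA-binding protein, was closest, at 336.9 ± 17.5 CPM in young and 371.7 ± 18.2 in old libraries (SD, n = 4 each) with a log2 fold change of 0.14 ± 0.06. Besides the overlapping features Gm26953 and Gm27882, the gene most like Miat was Mirg (r = 0.967), a maternally expressed noncoding RNA of the imprinted cluster on chromosome 12. Mirg was also highest in young library 1, at 29.71 CPM against 15.03 to 23.19 in the other 11 libraries.

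Snhg11, at chr2:158375638-158386145 on the plus strand, has 5 exons in its main annotated transcript. GENCODE vM21 lists the gene as protein coding, although it is known as a noncoding snoRNA host. Snhg11 took 0.0789%, 0.0541%, 0.0647% and 0.0546% of the counts in the young libraries. Its share was 0.0635%, 0.0492%, 0.0639% and 0.0638% in the old and 0.0754%, 0.0467%, 0.0584% and 0.0661% in the CP2-treated libraries. The groups overlap throughout, and the spread within the young and CP2-treated groups exceeds the differences between group means. The log2 fold changes were -0.07 ± 0.14 for old against young, 0.01 ± 0.14 for CP2-treated against old and -0.06 ± 0.14 for CP2-treated against young, with 95% intervals reaching no farther than -0.37 and 0.31 (edgeR, adjusted p from 0.83 to 0.993). The snoRNA features inside the gene, Gm25187 and Gm25129, had means of 92.6 and 124 counts per library and passed in no comparison. Of 11 tested snoRNA host genes none passed by edgeR, with 1 to 3 at an unadjusted p under 0.05 in each comparison. The closest was Gas5, known for its rise in cells that stop growing, at 48.17 ± 6.32 CPM in young and 66.02 ± 5.02 in CP2-treated libraries (SD, n = 4 each, adjusted p = 0.053). Both limma voom and DESeq2 called Gas5 higher in CP2-treated against young, and DESeq2 also in old against young. The genes most like Snhg11 were Rptoros (r = 0.914), Ccnt2 (r = 0.874) and Fnbp4 (r = 0.86).

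Over the 6 RNAs, the counts of calls were small in every comparison. In old against young 0 of 6 were called by edgeR (6.7% of all tested genes were called) or limma voom and 1 by DESeq2, Neat1, which was also the 1 with an unadjusted p under 0.05 in edgeR (21.4% of all). Of the 6, 1 had libraries that do not overlap between the groups, Neat1, beside 13.3% of all tested genes (6.94% higher). In CP2-treated against old 0 of 6 were called by edgeR (0.0443% of all), limma voom or DESeq2, 3 had an unadjusted p under 0.05 (6.31% of all), and the same 3, Yam1, AY036118 and Malat1, were lower without overlap (3.44% of all tested genes did not overlap, 1.82% were lower). Because Yam1 and AY036118 share reads, those 3 are 2 loci. In CP2-treated against young Malat1 alone was without overlap in CPM, beside 15.5% of all (7.07% lower). In share, Neat1 was also without overlap there, and higher. Over all genes, 23.2% had an unadjusted p under 0.05 there, and 2 of the 6 did, Malat1 and Neat1.

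Among the 15 pairs of members, Yam1 and AY036118 was the 1 with an adjusted p under 0.05 (r = 0.999, rho = 0.986, permutation p = 1e-05 for each, the smallest that 100000 permutations can give, adjusted p = 0.00015), and this pair shares reads. Without old library 8 and CP2-treated library 15 r was 0.998. The permutations moved libraries freely across the 3 groups, so these p-values do not set group differences apart from likeness within groups. Miat and Snhg11 came next, with r = 0.701 (permutation p = 0.0108, adjusted p = 0.081) and rho = 0.622 (p = 0.0351, adjusted p = 0.132). Without young library 1 and old library 9 their r was 0.54, and once each group's mean was removed it was 0.747. Malat1 and Miat gave r = 0.61 (permutation p = 0.0352, adjusted p = 0.176) and rho = 0.357 (p = 0.254, adjusted p = 0.635). That relation rests on young library 1 and CP2-treated library 12, without which r was -0.035. With all 12 libraries kept and each group's mean removed, r was 0.669. Yam1 and Malat1, both with their lowest group mean in CP2-treated libraries, gave r = 0.506 (permutation p = 0.0919, adjusted p = 0.276) and rho = 0.65 (p = 0.0245, adjusted p = 0.122). Their r was 0.624 without old library 8 and CP2-treated library 15, and 0.187 once each group's mean was removed.

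Some other long noncoding RNAs of the brain rose in old against young. Of 18 tested on a list that excludes the members, edgeR called 3 higher and none lower in old against young, where it called 6.7% of all genes: Xist, the RNA that silences an X chromosome, its antisense partner Tsix, and Crnde. Xist was at 703.7 ± 17.1 CPM in young, 1058 ± 52.2 in old and 975.9 ± 49.1 in CP2-treated libraries (SD, n = 4 each), with 0.59 ± 0.05 in log2 CPM for old against young (edgeR, adjusted p = 0.000168). Reads of Xist and Tsix cannot be told apart without strand where they overlap. In old against young DESeq2 called 4 higher and 1 lower (Dlx6os1), and limma voom called 4 higher and none lower. In CP2-treated against young edgeR and limma voom called 4 of the 18 higher and none lower, and DESeq2 4 higher and 1 lower (Kcnq1ot1), where edgeR called 7.57% of all genes. In CP2-treated against old none passed by edgeR, limma voom or DESeq2, with 4 lower at an unadjusted p under 0.05 in edgeR. The median log2 fold change of the 18 was 0.04, -0.03 and -0.08 for old against young, CP2-treated against young and CP2-treated against old, beside -0.0034, -0.0076 and 0.0017 over all tested genes. Of 18 tested genes of nuclear RNA decay and 3′ end processing, Exosc9, a subunit of the RNA exosome, was the 1 that passed in any comparison, and fell by 0.79 ± 0.21 in CP2-treated against young (edgeR, adjusted p = 0.0404).

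Sequence shared with other genes depends on the length of the stretch compared. No stretch of 101 bases of Yam1, of the part of AY036118 inside it, of Neat1 or of the longest Miat transcript recurs in a transcript of another gene elsewhere in GENCODE vM21. In Malat1, 0.0581% of such stretches recur, and in the Snhg11 transcript 0.052%. At 31 bases, 5.57% of the stretches of Snhg11 recur in 2191 other genes, 1.61% of those of Malat1 in 2252, 0.897% of those of Neat1 in 1346 and 0.0219% of those of Miat in 4, and none of those of Yam1 or AY036118 recur. The transcripts alone were searched, so copies elsewhere in the genome, including other ribosomal RNA repeats, were not analysed here.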

How the data were processed

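RNA from 12 mouse brain samples was sequenced from both ends of each fragment. Per the submitters' processing notes, bcl2fastq, TopHat, Subread and featureCounts were used with the mm10 build; the sources used here do not give versions or settings. The authors deposited 1 table with a raw count and an RPKM value per gene and library, per the file headers. The deposited counts were the basis of all tests, and the deposited RPKM values served for levels per length and for the implied library size. Depth was 70548781 to 99449665 counts, so the counting error is far below the spread between libraries.

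Samples were grouped by their titles. The main test was edgeR 4.0.16 (quasi-likelihood, TMM, filterByExpr, R 4.3.3) on all 12 libraries with group as the term, two-sided, with Benjamini-Hochberg adjustment over 22553 genes and a threshold of 0.05. The ± after a log2 fold change is the standard error. Alternatives were other scalings and totals, no filter, limma 3.58.1 voom, DESeq2 1.42.0, 8 libraries alone and each library left out. No 2 libraries of a group agreed within sampling noise. The members and gene lists were chosen with earlier results of these data known. Named genes are the members, up to 4 genes per list with the smallest p, the 3 genes most like each member, and tested genes within 100 kb; Gm23935, Sfpq, Nono, Dlx6os1 and Kcnq1ot1, and where they fall outside that rule Gas5 and Qk, were added after their values were seen. Sequences and annotation are from GENCODE vM21 (GRCm38), in which 42462 of 43346 deposited identifiers were found.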

Additional observations from a re-analysis of the deposited data

Results flagged for a closer look

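Of 18 sets of 4 shares (6 RNAs in 3 groups), 3 held a library that stood apart from the others of its group beyond Dixon's 95% critical value for the gap to the nearest library divided by the range of the group. Chance flags about 1 in 20 such sets. Neat1 in old library 7 had a ratio of 0.92, with a share of 0.0175% against 0.0116% in the next. Miat in young library 1 had a ratio of 0.859, with 0.0342% against 0.0228%. Snhg11 in old library 8, the low one, had a ratio of 0.975, with 0.0492% against 0.0635%.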

How the results depend on the processing

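Of 288 recomputed fold changes of the 6 RNAs, 266 kept their direction and their side of the threshold. Under an alternative scaling, total, filter or tool, Malat1 kept its call in CP2-treated against young. Neat1 in old against young passed with no filter on low counts (0.536), with the 8 libraries alone (0.536) and by DESeq2 (0.529). In the other 5 of these 8 settings Neat1 did not pass. Snhg11 changed sign near 0: 0.005 in CP2-treated against young with the total implied by RPKM, and -0.001 in CP2-treated against old by limma voom. DESeq2 called 2474, 108 and 2652 genes in old against young, CP2-treated against old and CP2-treated against young, where edgeR called 1511, 10 and 1707, and no filter gave 17 in the second of these. The cause of these differences was not tested.

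With each library left out in turn, genes called ranged from 855 to 1258, from 6 to 38 and from 827 to 1590 in the same order. The lowest counts came without young library 4, old library 9 and CP2-treated library 11, and 38 came without CP2-treated library 15. In old against young, Yam1 was 0.109 and AY036118 0.108 without old library 8. Malat1 ranged from -0.237 to 0.055, Miat from -0.015 to 0.251 and Snhg11 from -0.129 to 0.056. Neat1 ranged from 0.378 (without old library 7) to 0.591 and never passed (edgeR, adjusted p from 0.0559 to 0.122). In CP2-treated against old, Neat1 ranged from -0.299 to 0.018 and Snhg11 from -0.1 to 0.115. In CP2-treated against young, Malat1 ranged from -0.692 to -0.4 (adjusted p from 0.0181 to 0.0925), Miat from -0.186 to 0.073 and Snhg11 from -0.165 to 0.065. Neat1 there was 0.236 without CP2-treated library 15. Without young library 1 the sign turned for Malat1 and Snhg11 in old against young and for Miat and Snhg11 in CP2-treated against young. It turned for Neat1 in CP2-treated against old without old library 7, for Miat in old against young without young library 4 or old library 9, and for Snhg11 also without old library 8 or CP2-treated library 11, 12 or 15.

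A share of the larger total implied by RPKM is lower by construction. It was 2.38% (young) and 1.97% (CP2-treated) for Yam1, 1.16% (CP2-treated) for AY036118, 0.163% (old) and 0.124% (CP2-treated) for Malat1, 0.00729% (young) for Neat1, 0.0212% (old) and 0.0196% (CP2-treated) for Miat, and 0.0491% (old) for Snhg11. The sum of the 6 was 4.05% in young and 3.33% in CP2-treated libraries. No paired analysis was possible because the groups share no replicate numbers. Depth limits none of these values: with 4 libraries per group, the spread between libraries sets the precision.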
